A study of Homo sapiens with 10 samples.

Results

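A line of A549 cells labelled as an ABCA3 knockout (KO) was compared with the wild-type (WT) line by RNA sequencing, in 4 of the 10 libraries of the series. A549 is an established human lung adenocarcinoma line with epithelial features. The members were chosen by their labels alone: 1 untreated and 1 transduced library of each line, which gives 2 matched pairs. The WT libraries are labelled ABCA3 wild type, without vector and after overnight exposure to LV-ABCA3:GFP, a lentiviral vector carrying ABCA3 joined to GFP (multiplicity of infection 20). The KO libraries are labelled ABCA3 knockout, without and with the same vector. The other 6 libraries came from lines with the ABCA3 variants L101P, E292V and E690K, handled alike. Each genotype is represented by 1 line, so that the genotype and the history of that line cannot be told apart, and the labels do not say how the knockout was made.

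ABCA3 is a transporter of the ABC family that moves phospholipid into lamellar bodies, the storage organelles in which alveolar type 2 cells of the lung keep surfactant. Loss of its function causes surfactant deficiency in newborns and interstitial lung disease. A549 cells are often used as a stand-in for type 2 cells, although they keep few of the genes that define those cells.

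The labels were checked on ABCA3 and on the reporter rows before any other result. ABCA3 stood at 356 CPM (counts scaled to a common library size) in untreated and 602 in transduced WT cells, at 600 CPM in the library labelled KO untreated and at 26.0 CPM in the library labelled KO transduced. EGFP stood at 69.7 and 151 CPM in the WT libraries, at 37.9 CPM in the library labelled KO untreated and at 0.0497 CPM (4 counts) in the library labelled KO transduced. The KO library labelled as untreated thus carried both ABCA3 and EGFP transcripts, and the one labelled as transduced carried little of either, which goes against the labels. EGFP was also counted in the untreated WT library and in the untreated libraries of E292V (20.2 CPM), E690K (16.5 CPM) and L101P (1.01 CPM). EGFP in a library labelled as untreated was thus not particular to KO. tdTomato, a red fluorescent reporter with a row of its own, had 324 and 236 counts in WT, 0 counts in each KO library and at least 542 counts in each of the 6 variant libraries. Against the level that 3 read pairs over both KO libraries would give, tdTomato was at least 86.7-fold lower in KO. The count of ABCA3 does not separate vector from endogenous transcripts and does not show whether a knocked-out allele makes protein. EGFP in untreated WT (69.7 CPM) also stood above the transduced libraries of E292V (66 CPM), L101P (36.9 CPM) and E690K (18.5 CPM). The EGFP row thus does not bear out the untreated label of WT either. Vector status is in doubt in the KO pair and is not settled in the WT pair. The fit was repeated without each KO library and with the 2 KO labels exchanged. The counts of called genes from these fits are given beside the gene groups. The WT labels were kept as given.

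**Figure D1:**
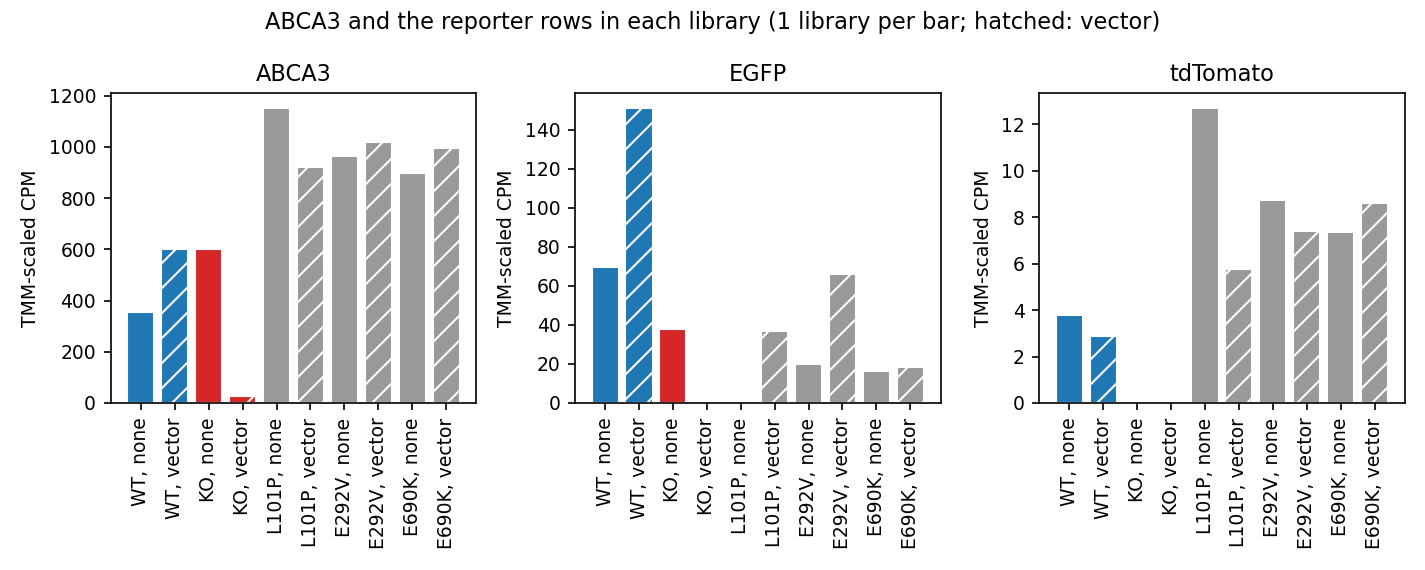
TMM-scaled CPM (vertical axes) of ABCA3, EGFP and tdTomato in each of the 10 libraries, with WT in blue, KO in red, the 3 variant lines in grey and hatching for libraries labelled as transduced. ABCA3 falls from 600 CPM to 26.0 CPM across the KO pair, and tdTomato is at 0 in both KO libraries.

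The 4 libraries held 74973562 to 83544281 counts, and 19541 to 20070 rows had at least 1 count. The epithelial markers KRT8, KRT18, KRT7 and CDH1 were present in all 4, with CDH1 at 27.5 to 33.8 CPM, whereas NKX2-1, a transcription factor of the lung epithelium, and SFTPC, a surfactant protein of type 2 cells, did not exceed 0.188 and 0.323 CPM. Of the immune markers CD3E was at 0 in all 4 libraries and PTPRC reached 0.0497 CPM. The summed level of 15 immune marker genes was 28.7 to 31.8 CPM in WT and 39.5 to 40.3 CPM in KO. Of these genes 12 were under 1 CPM in all 4 libraries, and most of the sum was CD68. It was at 25.2 and 22.7 CPM in WT and 31.2 and 31.6 CPM in KO (edgeR adjusted p 0.23). Of 8 tested immune markers 0 were called.

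Across both pairs the KO line had more transcript of TFF1, MUC5AC, CEACAM6, LAMB3, COL4A5, COL4A6 and EPCAM. It had less of MMP2, SPARC, TAGLN, MYL9, GFRA1, DPYSL3, CHAC1, TRIB3 and ASNS, and of the ferritin and fibrinogen genes. In a fit with terms for line and for vector across all 10 libraries, the edgeR adjusted p was under 0.05 for 323 of 17978 genes (1.80%), 145 higher (0.807%) and 178 lower (0.990%) in KO than in WT. All 323 differed the same way in both pairs as labelled, and the WT and KO levels did not overlap for 322 of them, the exception being FGG. Over all genes tested 63.3% differed the same way in both pairs and 45.8% did not overlap, and genes picked by the test in these libraries are bound to stand above these shares. The fold was at least 2 for 39 higher and 82 lower genes, and the median log2 fold change was 0.59 among the higher and -0.93 among the lower genes, against -0.01 over all genes tested. Estimates were above 0 for 8574 and below 0 for 9404 of all genes tested.

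The pairs share no library and can be read as 2 separate looks at the same lines. Of 12965 genes that averaged 1 CPM or more, 47 were at least 2-fold higher and 71 at least 2-fold lower in both pairs, which is 0.910%, and 0 were 2-fold apart in opposite directions. The untreated pair alone gave 77 higher and 120 lower genes at this fold, and the transduced pair gave 133 and 224. Across these genes, which are not independent replicates, the 2 sets of differences had a Pearson r of 0.64 and a Spearman rho of 0.48. Among the called genes, 105 of the 145 higher and 125 of the 178 lower ones were further apart in the transduced pair.

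**Figure D2:**
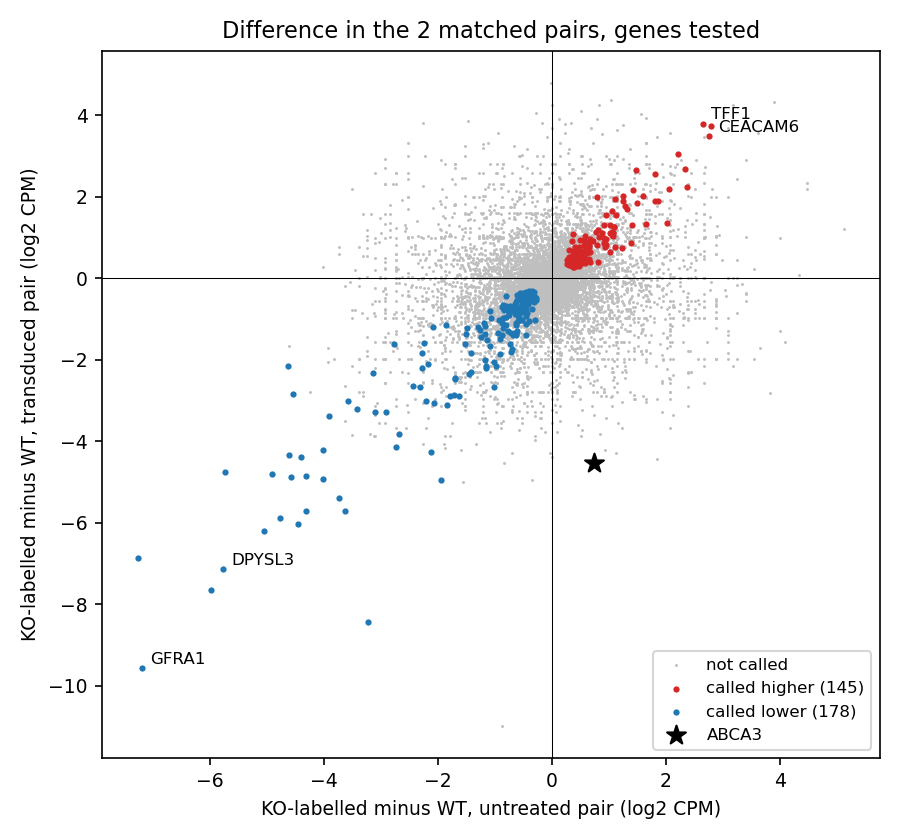
Log2 difference of KO minus WT in the untreated pair (horizontal) and the transduced pair (vertical) for the 17978 genes tested, with the 145 genes called higher in red, the 178 called lower in blue and ABCA3 as a star. The called genes lie at the lower left and upper right, while ABCA3 is at 0.75 in the untreated and -4.53 in the transduced pair.

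The calls depended on each of the 4 libraries. Without the library labelled KO transduced 5 higher and 20 lower genes were called, without KO untreated 57 and 91, without WT untreated 50 and 92, and without WT transduced 45 and 55. With the 2 KO labels exchanged 50 higher and 92 lower genes were called. Of the 323 genes, 25, 128, 130, 90 and 139 were called the same way in these 5 fits. The 30 genes with the largest changes, 15 in each direction, all kept their direction in these fits. They were chosen for the same direction in both pairs and did not overlap between WT and KO, so a kept direction is no test. The call was kept by 9 without the library labelled KO transduced, 28 without KO untreated, 23 without WT untreated, 20 without WT transduced and 23 with the labels exchanged. The 9 were FSTL4, EGR1, tdTomato, GFRA1, DPYSL3, APBB1IP, TINAGL1, MYL9 and PXDN.

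The leading genes were also read in the other lines of the series, against the same WT libraries. For all 15 of the leading higher genes, both libraries of L101P and both of E690K also stood above both WT libraries, while this held for 1 of the 15 in E292V. For the 15 leading lower genes the same count was 14 in L101P, 13 in E690K and 1 in E292V. Both KO libraries lay beyond the other 8 for tdTomato, MMP2 and DOCK3 among the lower genes and for none of the 15 higher genes. The genes were chosen for standing apart from these same 2 WT libraries, which by itself raises such counts. Of all 3961 tested genes with both KO libraries above both WT libraries, both L101P libraries were also above in 57.3%, both E690K libraries in 54.9% and both E292V libraries in 22.9%. Of the 4268 with both KO libraries below, the shares were 57.5%, 56.9% and 25% in the same order. No test was made of how far the lines resemble each other.

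**Figure D3:**
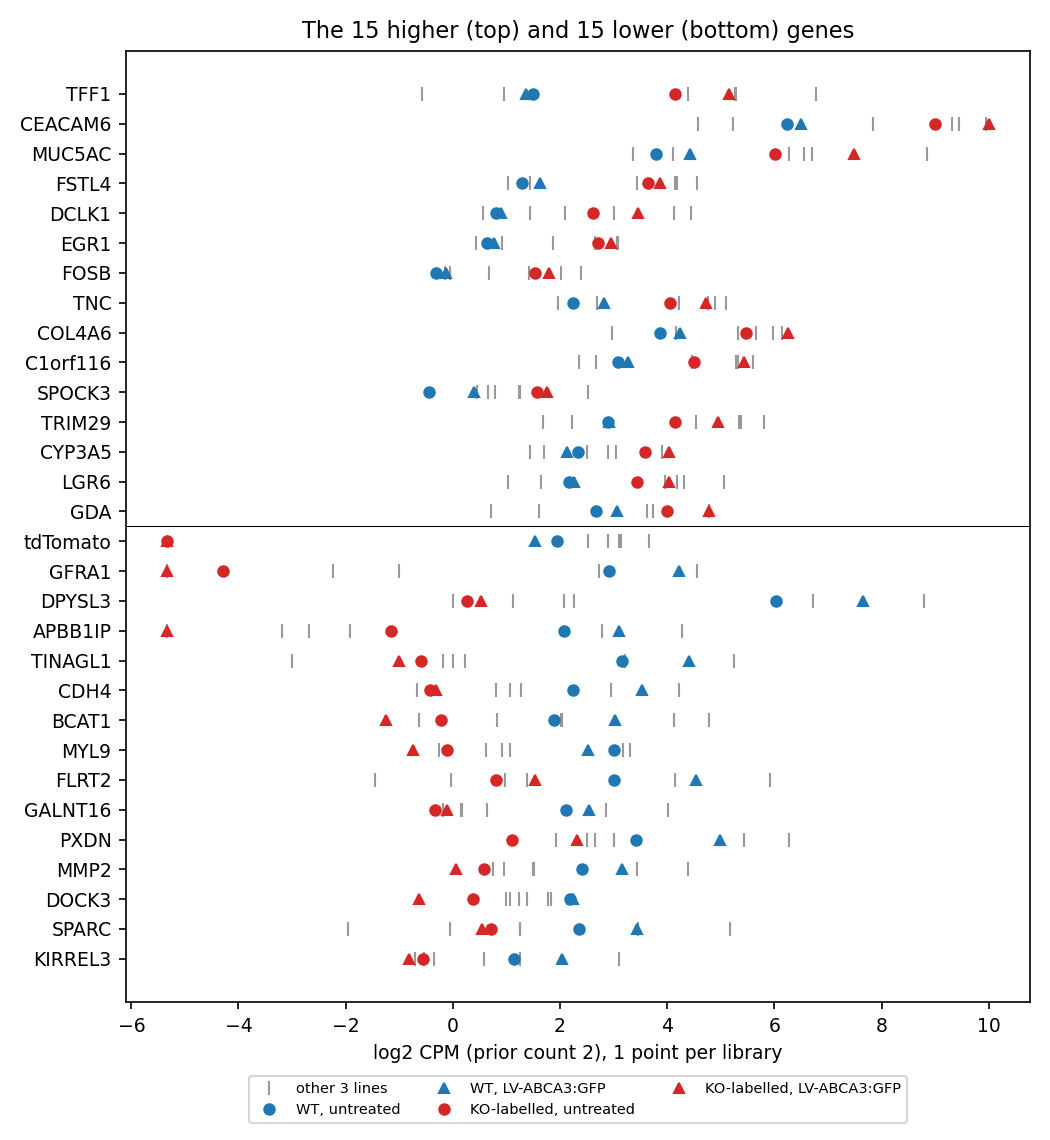
Log2 CPM (horizontal, prior count 2) of the 30 leading genes, 15 per direction, 1 point per library: WT blue, KO red, circles untreated, triangles transduced, grey ticks the 6 variant libraries. The KO points lie on one side of the WT points in each row, and for most genes grey ticks reach the KO levels.

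TFF1 and MUC5AC were among the genes with the largest increases in KO. Of 24 tested genes of the goblet cell list 3 were called higher and 0 lower (12.5%, against 1.80% of all genes tested). The median log2 fold change was 0.55. All lists were chosen with earlier results of these data known, so a share above 1.80% is no test of a list. TFF1, a trefoil peptide secreted with mucus, was at 2.78 and 2.55 CPM in untreated and transduced WT cells and at 17.6 and 35.8 CPM in the KO libraries (log2 fold change 3.23, SE 0.58, edgeR adjusted p 0.0162). MUC5AC, a gel-forming airway mucin, was at 13.9 and 21.5 CPM in WT and at 64.7 and 180 CPM in KO (2.68, SE 0.55, edgeR adjusted p 0.0321). For both genes the lower KO library was above the higher WT library by a wide margin, and the transduced KO library was the highest of the 4. GALNT5, an enzyme that starts O-linked glycan chains, rose by 1.17 (SE 0.17, edgeR adjusted p 0.00577). MUC5B, the other main airway mucin, stood at 202 and 271 CPM in WT and 364 and 626 CPM in KO and missed the threshold (1.04, SE 0.37, edgeR adjusted p 0.206). Reads of MUC5AC and MUC5B could be shared where their repeats are alike. With the library labelled KO transduced left out 0 members of this list were called, without the library labelled KO untreated 3 were, and with the labels exchanged 2 were.

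Of 7 tested membrane-bound mucins 14.3% were called, against 1.80% of all genes. MUC16 was called higher, from 0.447 and 0.34 CPM in WT to 2.37 and 2.31 CPM in KO. Its call was lost when either KO library was left out. All 7 had positive estimates, with a median of 0.53. In the list of CEACAM and pregnancy-specific glycoproteins, a family of immunoglobulin-like adhesion molecules, 10 of 11 tested genes had positive estimates. The median log2 fold change was 2.03, and 1 gene was called (9.09%, against 1.80% of all genes). That gene was CEACAM6, at 75 and 90.7 CPM in WT and 513 and 1024 CPM in KO (3.15, SE 0.46, edgeR adjusted p 0.00578). The KO levels were several-fold above both WT levels in each pair, although members of this family are alike in sequence and could share reads. CEACAM5 stood at 3.6 and 3.1 CPM in WT and 8.65 and 23.9 CPM in KO without passing the test (2.04, SE 0.71, edgeR adjusted p 0.198). CEACAM6 kept its call without the library labelled KO untreated and with the labels exchanged, but not without KO transduced. SPDEF, a transcription factor of goblet cells chosen here after its values were seen, was at 59.2 and 45.8 CPM in WT and 68.1 and 72.4 CPM in KO (0.43, SE 0.19, edgeR adjusted p 0.336).

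A few epithelial adhesion genes rose. Of 33 tested junction genes 3 were called higher and 0 lower (9.09%, against 1.80% of all genes), with a median of 0.26. EPCAM, a surface glycoprotein of epithelial cells, was at 10.6 and 7.62 CPM in WT and 20.5 and 22.5 CPM in KO (1.25, SE 0.17, edgeR adjusted p 0.00434), and the 2 lines did not overlap. The desmosome genes PKP3 and DSG2 rose by 0.45 (SE 0.10) and 0.38 (SE 0.08). CDH1, which encodes E-cadherin, stood at 27.5 and 30.3 CPM in WT and 32.9 and 33.8 CPM in KO (0.21, SE 0.13, edgeR adjusted p 0.531). Among 8 tested keratins of simple epithelium KRT80 was called (0.57, SE 0.09, edgeR adjusted p 0.0105), a share of 12.5%. Among 13 genes of stratified epithelium 0 were called by edgeR and 0 by DESeq2 (4 at an unadjusted p under 0.05), with 10 positive estimates. Without the library labelled KO transduced 0 junction or simple keratin genes were called, without KO untreated 2 and 1 were, and with the labels exchanged 1 and 0 were.

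The laminin chain gene LAMB3 and both chains of integrin alpha6 beta4 rose. LAMB3 and LAMA3 encode chains of a basement membrane laminin of epithelia, which is held at the hemidesmosome by this integrin, encoded by ITGA6 and ITGB4. LAMB3 was at 42 and 47.3 CPM in WT and 89.6 and 114 CPM in KO (1.18, SE 0.17, edgeR adjusted p 0.00578). Each KO library was above both WT libraries. LAMA3 stood at 97.7 and 104 CPM in WT and 128 and 126 CPM in KO and missed the threshold (0.33, SE 0.09, edgeR adjusted p 0.0931). ITGA6 rose by 0.71 (SE 0.11) and ITGB4 by 0.63 (SE 0.14). The hemidesmosomal collagen gene COL17A1 was at 2.53 and 2.66 CPM in WT and 4.68 and 6.76 CPM in KO, which did not pass (edgeR adjusted p 0.0976). LAMB3 lost its call without the library labelled KO transduced (1.05) and kept it without KO untreated (1.32) and with the labels exchanged (1.19). Of 19 tested integrins 2 were called higher and 1 lower (15.8%, against 1.80% of all genes). These counts were 0 and 0, 1 and 1, and 1 and 1 in the fits just named, in that order.

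The 250 bases before a LAMB3 start are shown because LAMB3 and FOSB, a subunit of the AP-1 transcription factor, both rose. They lie at chr1:209651375-209651624 on the minus strand in GRCh38.p14, from RefSeq, with the AP-1 motif in capitals. LAMB3 is annotated by GENCODE release 29 on chromosome 1 from 209614870 to 209652466, so this start lies inside the gene, and it is 1 of 3 starts that RefSeq lists.
LAMB3: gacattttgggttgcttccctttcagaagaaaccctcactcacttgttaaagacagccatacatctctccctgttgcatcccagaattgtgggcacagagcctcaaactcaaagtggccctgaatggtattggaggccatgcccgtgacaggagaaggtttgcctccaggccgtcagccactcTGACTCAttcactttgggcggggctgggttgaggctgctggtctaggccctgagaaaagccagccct
The motif searched was TGANTCA, where N is any base, on both strands. It began 67 bases before this start and was absent from the windows of the other 2, and 6.57% of the 35116 RefSeq promoters hold it in their 250 bases. Of the 4 genes searched (LAMB3, LAMA3, ITGA6 and ITGB4) 3 had a sequence and LAMB3 and LAMA3 held the motif. A match is a description of the sequence and no measure of binding.

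COL4A5 and COL4A6, which encode 2 chains of basement membrane collagen IV, were both higher. COL4A6 was at 14.5 and 18.9 CPM in WT and 44.2 and 76.4 CPM in KO (1.84, SE 0.31, edgeR adjusted p 0.0119). COL4A5 was at 22.6 and 25.1 CPM in WT and 42.5 and 62.3 CPM in KO (1.14, SE 0.21, edgeR adjusted p 0.0189). The KO libraries exceeded the WT libraries in each pair for both genes. They lie head to head on the X chromosome, COL4A6 from 108155607 to 108439497 on the minus strand and COL4A5 from 108439844 to 108697545 on the plus strand. The 250 bases before the COL4A5 start (chrX:108439588-108439837, plus strand, GRCh38.p14, RefSeq) lie between the 2 genes as GENCODE places them and are shown as the stretch from which they are transcribed in opposite directions.
COL4A5: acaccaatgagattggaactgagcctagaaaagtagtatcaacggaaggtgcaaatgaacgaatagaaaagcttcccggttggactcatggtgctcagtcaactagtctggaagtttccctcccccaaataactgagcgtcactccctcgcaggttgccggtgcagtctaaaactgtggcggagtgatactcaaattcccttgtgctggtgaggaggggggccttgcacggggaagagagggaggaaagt
COL4A1, on another chromosome, was at 144 and 220 CPM in WT and 143 and 149 CPM in KO (-0.31, SE 0.20, edgeR adjusted p 0.549). Over the 37 tested matrix genes 5 were called higher and 3 lower (21.6%, against 1.80% of all genes), with a median of 0.16. These counts were 1 and 0 without the library labelled KO transduced, 5 and 0 without KO untreated, and 4 and 2 with the labels exchanged. VCAN, a large proteoglycan, was among the higher genes (0.82, SE 0.14). The lower ones were COL13A1, a membrane collagen (-3.31, SE 0.57), CTGF, a matricellular protein (-0.76, SE 0.12), and COL5A2, a fibrillar collagen chain (-0.39, SE 0.08). TNC, an extracellular glycoprotein counted in the mesenchymal list, rose from 4.71 and 7.07 CPM in WT to 16.6 and 26.6 CPM in KO (1.87, SE 0.25, edgeR adjusted p 0.00378).

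Of 27 tested genes of the mesenchymal state 5 were called lower and TNC alone higher (22.2%, against 1.80% of all genes). Negative estimates were found for 20, with a median of -0.17 over the list. MMP2, a gelatinase, was at 5.3 and 8.94 CPM in WT and 1.47 and 1.02 CPM in KO (-2.47, SE 0.31, edgeR adjusted p 0.00268). SPARC, a collagen-binding matrix protein, was at 5.08 and 10.9 CPM in WT and 1.63 and 1.44 CPM in KO (-2.30, SE 0.52, edgeR adjusted p 0.0478). TAGLN, an actin-binding protein of smooth muscle, fell by 1.26 on the log2 scale (SE 0.22), and WNT5B, a secreted WNT ligand, fell by 2.03 (SE 0.41). ZEB2, a repressor of epithelial genes, had 226 counts in the WT libraries and 2 in the KO libraries, a ratio of 105 with a 95% counting interval of 18.5 to 4184. ZEB1 was at 25.4 and 29.9 CPM in WT and 26.4 and 23 CPM in KO and did not pass (edgeR adjusted p 0.613), nor did SNAI1, at 5.27 and 5.24 CPM in WT and 2.35 and 1.86 CPM in KO (edgeR adjusted p 0.0707). With the library labelled KO transduced left out 0 of the mesenchymal genes were called, without KO untreated 1 was higher and 2 were lower, and with the labels exchanged 1 and 3. Summed fibroblast and muscle markers moved the same way: 10 genes gave 47.9 and 68.2 CPM in WT and 34.9 and 32.1 CPM in KO. Of the 10, 7 were under 1 CPM in all 4 libraries, and DCN had 0 CPM in 3 of the 4. Most of the sum was COL1A1, at 26 and 44.9 CPM in WT and 21.4 and 19.8 CPM in KO, and THY1. THY1 was called lower (18.6 and 20.2 CPM in WT, 9.73 and 8.03 CPM in KO) and COL1A1 was not. Estimates were negative for 6 of 7 tested, while LUM went the other way, from 1.95 and 1.68 CPM to 2.88 and 3.98 CPM. The part of these markers in the result was not tested, and in bulk RNA fewer cells of a type and less RNA per cell cannot be told apart.

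MYL9, a myosin regulatory light chain, was at 7.97 and 5.77 CPM in WT and 0.907 and 0.572 CPM in KO (-3.22, SE 0.28, edgeR adjusted p 1.9e-04), with no overlap, and its call held without either KO library. TPM1, a tropomyosin, fell by 0.75 (SE 0.17, edgeR adjusted p 0.0498) and FLNC, a filamin, by 1.57 (SE 0.36, edgeR adjusted p 0.0473). These last 2 genes were chosen after their values were seen, and both lost their calls without either KO library and with the labels exchanged. Among 18 tested YAP and TEAD targets 1 was called (5.56%, against 1.80% of all genes). The list median was -0.06, at 0.06 in the untreated and -0.19 in the transduced pair. ANKRD1, a cardiac ankyrin repeat protein, was called lower (-2.09, SE 0.33) and 0 were higher. The ANKRD1 call was lost without the library labelled KO transduced and with the labels exchanged. ITGA11, an integrin chain that binds collagen, fell by 1.69 (SE 0.33, edgeR adjusted p 0.0267).

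GFRA1 and DPYSL3 were among the genes with the largest decreases. GFRA1, a co-receptor for the growth factor GDNF, was at 7.53 and 18.7 CPM in WT and had 2 counts in all in KO, a ratio of 1014 with a 95% counting interval of 182 to 40081. DPYSL3, a protein of growth cones, was at 65.6 and 201 CPM in WT and 1.17 and 1.42 CPM in KO (-6.56, SE 0.56, edgeR adjusted p 1.9e-04). For both genes WT and KO were far apart in each pair, and the transduced WT library was the highest of the 4. EPHB1, an ephrin receptor, had 174 counts in WT and 2 in KO (ratio 80.8, 95% counting interval 14.1 to 3230). Among 28 tested genes of the neuronal list 5 were called lower and 2 higher, with a median of -0.16 and 12 positive estimates. Of these 1 was lower and 0 higher without the library labelled KO transduced, without KO untreated 2 and 2, and with the labels exchanged 3 and 2. CRMP1 (-0.66, SE 0.11), DPYSL5 (-1.27, SE 0.23) and DPYSL2 (-0.41, SE 0.09), all of the DPYSL family, were lower, as was SNAP25, a vesicle fusion protein (-1.10, SE 0.19). STMN3, a microtubule regulator, rose by 0.82 (SE 0.13) and DCLK1, a microtubule-associated kinase, by 2.23 (SE 0.33). In the GDNF and axon guidance list of 43 tested genes 6.98% were called, against 1.80% of all genes. GFRA1 and EPHB1 were lower and NTN4, a netrin, was higher by 0.34 (SE 0.08). In this list 1 lower and 0 higher genes were called without either KO library and with the labels exchanged.

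Some rows that WT cells expressed had no count in either KO library. With at least 20 counts required in each WT library, 9 rows had 0 counts in both KO libraries, and 8 of them were called, against 1.80% of all genes tested. Rows picked in this way from the same libraries are bound to be called more often, so this count is no test. Apart from tdTomato, NRXN3, a synaptic adhesion molecule, had 542 counts in the WT libraries and was at least 83.9-fold lower. TRHDE, a peptidase, was at least 33.6-fold lower, FGF5, a growth factor, at least 26.9-fold and TOX, a nuclear factor of lymphocytes, at least 22.6-fold. FLI1, a transcription factor of the ETS family, was at least 15-fold lower, ZNF440 at least 16.4-fold and MFAP2, a microfibril protein, at least 14.2-fold. The bounds take 3 read pairs over both KO libraries as the floor. At least 20 counts in both libraries were found in all 3 variant lines for tdTomato and in 1 of the 3 lines for 7 of the other rows, in each case E292V. In the other direction GUCA2A and FMOD had 0 counts in WT and at least 20 in both KO libraries, and neither was called.

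In the EGF receptor pathway EGR1 and the ligand genes AREG and EREG were higher. Of its 29 tested genes 3 were called higher and 0 lower (10.3%, against 1.80% of all genes). Positive estimates were found for 24, with a median of 0.20. EGR1, an early response transcription factor, was at 1.53 and 1.68 CPM in WT and 6.45 and 7.78 CPM in KO (2.15, SE 0.25, edgeR adjusted p 0.00204), apart in both pairs, and it kept its call without either KO library and with the labels exchanged. EGR1 alone of this list was called without the library labelled KO transduced, without KO untreated 2 genes were, and with the labels exchanged 1. AREG and EREG, which neighbour each other on chromosome 4, rose by 0.50 (SE 0.11) and 0.42 (SE 0.08). TGFA, another ligand, was at 15.7 and 18.9 CPM in WT and 24.7 and 39 CPM in KO (edgeR adjusted p 0.0707). FOSB, a subunit of AP-1, was at 0.777 and 0.898 CPM in WT and 2.88 and 3.43 CPM in KO (1.91, SE 0.29, edgeR adjusted p 0.00678). It was the only 1 of 20 tested genes of the immediate early list to be called (5.00%). That list leaves out EGR1, which was placed in the EGF receptor list. FOS was at 2.1 and 2.53 CPM in WT and 2.45 and 3.18 CPM in KO (0.28, SE 0.23, edgeR adjusted p 0.671). FOSB lost its call without the library labelled KO transduced. Of 32 inflammatory genes 9.38% were called. CXCL8, a chemokine, rose from 0.612 and 0.68 CPM to 1.76 and 2.51 CPM (edgeR adjusted p 0.0158). The cytokines IL11 (-1.19, SE 0.21) and CSF1 (-0.64, SE 0.13) were lower, and 0 of the 3 were called without the library labelled KO transduced.

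CHAC1, ASNS and TRIB3 were lower. Of 35 tested genes of the unfolded protein response these 3 were called lower and 0 higher (8.57%, against 1.80% of all genes). In the list 23 had positive estimates and the median was 0.06. The 3 are known targets of the stress factor ATF4. CHAC1, which breaks down glutathione, was at 5.37 and 4.69 CPM in WT and 1.47 and 2.11 CPM in KO (-1.49, SE 0.23, edgeR adjusted p 0.00724). ASNS, asparagine synthetase, was at 50.7 and 58.3 CPM in WT and 36.9 and 30.8 CPM in KO (-0.69, SE 0.11, edgeR adjusted p 0.0105). Both genes were lower in each KO library than in either WT library. TRIB3, a pseudokinase, fell by 0.58 (SE 0.10). PHGDH and PSAT1, the first enzymes of serine synthesis, were added after their values were seen. PHGDH was at 39 and 35.5 CPM in WT and 18.3 and 20.5 CPM in KO (-0.93, SE 0.11, edgeR adjusted p 0.00255), and PSAT1 fell by 0.41 (SE 0.09, edgeR adjusted p 0.0401). CHAC1 and PHGDH kept their calls without the library labelled KO transduced. Of the list, 1 gene was called lower in that fit, 2 without KO untreated and 3 with the labels exchanged.

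Short stretches before the CHAC1 and ASNS starts are shown because they hold the letters of the amino acid response element known from ASNS, in capitals. They are taken from RefSeq on GRCh38.p14, at chr15:40953254-40953277 on the plus strand for CHAC1 and chr7:97872461-97872484 on the minus strand for ASNS. Both lie within a first exon that GENCODE annotates as untranslated in some transcripts.
CHAC1: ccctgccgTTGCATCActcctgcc
ASNS: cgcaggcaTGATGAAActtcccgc
The motif searched was TGATGNAA on both strands, which 3.14% of the 35116 promoters hold in their 250 bases. It began 209 bases before the CHAC1 start, on the reverse strand, and 68 bases before 1 of the 2 RefSeq starts of ASNS. The windows of TRIB3, PHGDH and PSAT1 did not hold these letters.

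The ferritin genes, HMOX1 and the fibrinogen genes were lower in KO than in WT. FTL and FTH1, the ferritin chains, were at 9450 and 7211 CPM and at 2528 and 1992 CPM in the WT libraries, and at 6702 and 5298 CPM and 1883 and 1314 CPM in the KO libraries (-0.47, SE 0.09, edgeR adjusted p 0.0189, and -0.51, SE 0.11, edgeR adjusted p 0.0415). Both have many near-identical pseudogenes, so their levels are uncertain. HMOX1, which breaks down heme, was at 391 and 382 CPM in WT and 256 and 155 CPM in KO (-0.93, SE 0.20, edgeR adjusted p 0.0354). In the same NRF2 list of 33 tested genes, 3 others were higher: TXNRD1, a thioredoxin reductase (0.33, SE 0.06), ABCC3, an export pump (0.61, SE 0.12), and AKR1B10, an aldo-keto reductase (0.52, SE 0.11). Of this list 18.2% were called, against 1.80% of all genes. In it 0 genes were called without the library labelled KO transduced and with the labels exchanged, and 0 higher and 3 lower without KO untreated. NQO1, a standard NRF2 target, was at 1044 and 868 CPM in WT and 1108 and 1096 CPM in KO (edgeR adjusted p 0.337). Of 35 fibrinogen, complement and serpin genes FGB (-0.52, SE 0.09), FGG (-0.52, SE 0.12), FGA (-0.38, SE 0.08) and C5 (-0.48, SE 0.08) were lower and 0 higher, with 15 positive estimates and a median of -0.08. The share called was 11.4%, against 1.80% of all genes. Without the library labelled KO transduced 0 genes of this list were called, without KO untreated 1 and with the labels exchanged 1. The 3 fibrinogen genes are neighbours on chromosome 4.

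Among genes of surfactant and lipid handling HHIP, ABCA1, SCD and FADS2 were lower and ABCA12 and SMPD1 higher. Of 15 tested alveolar type 2 genes HHIP, an inhibitor of hedgehog signalling, was called lower at 0.553 and 1.52 CPM in WT and 0.0133 and 0.124 CPM in KO, and 0 were higher. Summed without ABCA3, 23 type 2 genes gave 492 and 522 CPM in WT and 527 and 543 CPM in KO. Of 7 tested ABCA transporters ABCA1, which exports cholesterol, was lower (10.3 and 16.6 CPM in WT, 4.59 and 3.73 CPM in KO, -1.67, SE 0.27, edgeR adjusted p 0.00901). ABCA12, a lipid transporter of keratinocytes, was higher (1.13, SE 0.25, edgeR adjusted p 0.0423). Of 36 fatty acid and phospholipid genes the desaturases SCD (-0.76, SE 0.11) and FADS2 (-0.37, SE 0.08) were lower, and of 24 cholesterol synthesis genes 0 were called by edgeR and 1 by DESeq2 (6 at an unadjusted p under 0.05), with 20 negative estimates and a median of -0.16. SMPD1, which encodes acid sphingomyelinase, was the 1 called gene among 31 lysosomal genes (0.48, SE 0.11, edgeR adjusted p 0.0457). The share called was 6.67% of the type 2 genes, 28.6% of the 7 ABCA transporters, 5.56% of the fatty acid genes and 3.23% of the lysosomal genes, against 1.80% of all genes, each from 1 or 2 calls. HHIP lost its call without either KO library and with the labels exchanged, and 0 genes of these 4 lists were called without the library labelled KO transduced.

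**Figure D4:**
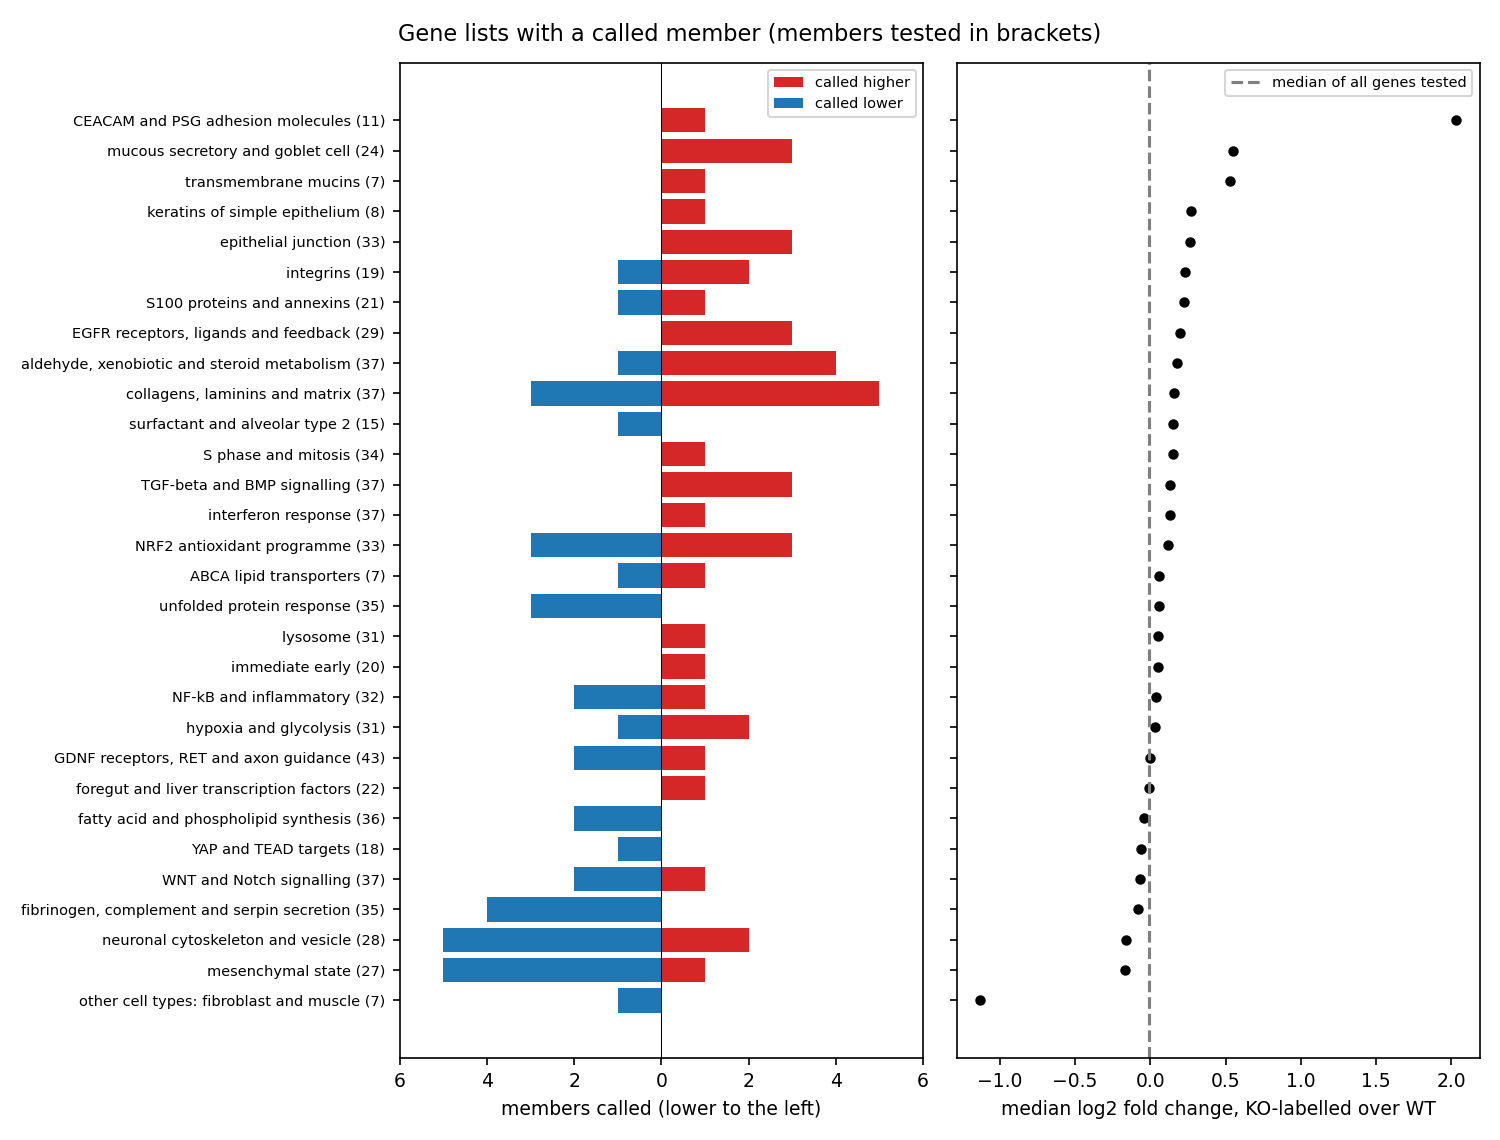
Gene lists with at least 1 called member (members tested in brackets): left, the number called higher (red) and lower (blue) in KO; right, the median log2 fold change of the tested members, with the median of all genes (-0.01) dashed. The CEACAM list has the highest median (2.03), resting on 11 tested genes of which 1 was called.

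CPS1 and CYP3A5, in the list of aldehyde, xenobiotic and steroid metabolism, were higher. CPS1, the first enzyme of the urea cycle, was at 26 and 27.8 CPM in WT and 68.9 and 69.2 CPM in KO (1.36, SE 0.21, edgeR adjusted p 0.00689). CYP3A5, a drug-metabolising cytochrome, was at 5 and 4.36 CPM in WT and 12 and 16.4 CPM in KO (1.59, SE 0.25, edgeR adjusted p 0.00877). In the same list of 37, ALDH1A3 and TIPARP were higher and SULT2B1 was lower. Of 31 hypoxia and glycolysis genes CA12 and PFKP were higher and ANGPTL4, a lipase inhibitor, was lower (-0.81, SE 0.15). LGR6, a receptor for R-spondins, rose by 1.54 (SE 0.29), while JAG2, a Notch ligand (-0.66, SE 0.14), and FZD2, a WNT receptor (-0.54, SE 0.12), were lower. BMP6, ID2 and PMEPA1 rose by 0.59, 0.47 and 0.42 among 37 genes of TGF-beta and BMP signalling, where 0 were called lower, and the 3 calls were lost without either KO library and with the labels exchanged. The shares called were 13.5% of the metabolism list, 9.68% of the hypoxia list and 8.11% each of the TGF-beta and the WNT and Notch lists. Over all genes the share was 1.80%. No gene of these lists (0) was called without the library labelled KO transduced, while CPS1 and CYP3A5 kept their calls without KO untreated and with the labels exchanged.

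The other leading genes belong to no list. FSTL4, a secreted follistatin-like protein, was at 2.41 and 3.06 CPM in WT and 12.5 and 14.5 CPM in KO (2.32, SE 0.22, edgeR adjusted p 3.5e-04). It was apart by a like amount in both pairs and kept its call without either KO library. TRIM29, a tripartite motif protein of epithelia (1.65, SE 0.31), C1orf116, an androgen-regulated gene (1.83, SE 0.27), GDA, guanine deaminase (1.54, SE 0.32), and SPOCK3, a matrix proteoglycan (1.72, SE 0.40), were higher too. Among the lower ones, TINAGL1, a matricellular protein, was at 8.87 and 21 CPM in WT and 0.64 and 0.472 CPM in KO (-4.62, SE 0.49, edgeR adjusted p 7.8e-04). BCAT1, which transfers the amino group of branched-chain amino acids, was at 3.67 and 8.13 CPM in WT and 0.827 and 0.398 CPM in KO (-3.26, SE 0.50, edgeR adjusted p 0.00695). Both were lower in each KO library than in either WT library. APBB1IP, an adaptor that links RAP1 to integrins, had no count in the library labelled KO transduced and 0.427 CPM in the other, against 4.21 and 8.55 CPM in WT. The adhesion molecules CDH4 (-3.36, SE 0.51), FLRT2 (-2.66, SE 0.44) and KIRREL3 (-2.28, SE 0.45) were lower, as were the glycosyltransferase GALNT16 (-2.58, SE 0.34) and DOCK3, an activator of RAC1 (-2.31, SE 0.30).

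The KO line was also set against the mean of the 3 variant lines in the same fit, where 204 genes were called (1.13%), 105 higher and 99 lower. The 2 comparisons share the KO libraries, so their values are given side by side. The mean pools lines that differ from each other. CPS1 was 1.36 above WT and 2.09 above the mean of the variant lines (SE 0.16, edgeR adjusted p 6.0e-05). The variant libraries ran from 5.64 to 70.4 CPM, against 68.9 and 69.2 CPM in KO. CEACAM6 was 3.15 above WT and 1.68 above that mean (SE 0.32, edgeR adjusted p 0.0315). It was at 37.3 and 23.9 CPM in E292V, 697 and 640 CPM in E690K, 229 and 991 CPM in L101P and 513 and 1024 CPM in KO. MYL9 was -3.22 against WT and -1.93 against the variant lines (SE 0.25, edgeR adjusted p 0.00666). PXDN, a peroxidase that crosslinks collagen IV, was -2.51 and -1.92 (SE 0.22, edgeR adjusted p 0.00275). For MYL9 the variant libraries ran from 0.808 to 9.85 CPM, against 0.907 and 0.572 CPM in KO. For PXDN they ran from 3.79 to 77.9 CPM, against 2.13 and 4.97 CPM in KO. SAGE1, a cancer-testis antigen chosen after its values were seen, was at 16 and 15.3 CPM in WT, at 14.9 to 18.8 CPM in the 6 variant libraries and at 5.95 and 4.25 CPM in KO. Its log2 fold change was -1.63 against WT (SE 0.13, edgeR adjusted p 1.9e-04) and -1.77 against the variant lines (SE 0.12, edgeR adjusted p 2.7e-05). TFF1 and MUC5AC, at 0.82 (SE 0.41) and 0.66 (SE 0.41) against the variant lines, did not pass there. The ferritin and fibrinogen genes and HMOX1, all lower than in WT, did not pass against the variant lines either. FTL and FTH1 were each at -0.03, HMOX1 at -0.20, FGB at 0.24, FGG at 0.28 and FGA at 0.26.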

How the data were processed

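RNA was taken from lifted A549 cells and made into libraries with a total-RNA kit, per the labels' protocols. The deposited table holds raw counts per gene for 33551 rows and 10 libraries; featureCounts, Subread, edgeR, limma and GRCh38 are named in the submitters' processing notes, with no versions. How mates, strands and shared reads were counted is not given in the sources used here. Of counts from 1 to 10, 81.4% were even, as when both mates of a pair are counted, so counting intervals (95%) use count pairs and cover counting error only. A count of 0 was set at 3 read pairs, 6 counts over both KO libraries.

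Counts were fitted with edgeR 4.0.16 in R 4.3.3 (filterByExpr, 17978 genes, TMM scaling, quasi-likelihood F test, two-sided, Benjamini-Hochberg threshold 0.05) as line plus vector over all 10 libraries, with 4 residual degrees of freedom. With 1 library per line and treatment, p-values measure departure from additivity among these libraries, not spread over clones. Log2 CPM for single libraries used a prior count of 2, and CPM were TMM-scaled. The comparison with the mean of the variant lines used the same fit and was added after the data were seen. Alternatives were DESeq2 1.42.0, other scalings and filters, sets of libraries left out, no vector term, KO labels exchanged and counts halved. Matched libraries come from the same line. CPM in the text are these scaled counts.

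Named genes were the 15 higher and 15 lower called genes that changed most on the log2 scale and had an average log2 CPM of at least 1 and the same direction in both pairs, plus ABCA3, EGFP, tdTomato, the called members of each list and up to 3 uncalled ones. Not every such gene is reported here. Members and gene lists were chosen with earlier results of these data known; genes outside the rule were chosen after their values were seen. Coordinates are from GENCODE release 29 on GRCh38, which matched 98.7% of rows.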

Additional observations from a re-analysis of the deposited data

Results flagged for a closer look

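ABCA3 moved in opposite directions in the 2 matched pairs. KO minus WT was 0.75 on the log2 scale without the vector and -4.53 with it, by the labels, and the difference was not tested. ZEB1 did so too, by much less, at 0.05 without and -0.38 with the vector, also untested. Over all genes tested 63.3% differed the same way in both pairs, so opposite signs alone are common. Only called genes and the genes followed singly were screened for this.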

How the results depend on the processing

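The 323 calls became 324 with DESeq2 median-ratio factors, 332 with upper-quartile factors, 299 with at least 10 counts in every library, 351 with counts divided by 2 and 382 without the E292V pair. They became 982 with no filter, 744 with the DESeq2 Wald test, 1725 with only the 4 KO and WT libraries (1 residual degree of freedom), 1124 without the L101P pair, 147 without the E690K pair, 165 with no vector term and 142 with the KO labels exchanged; the cause was not tested. Leaving out 1 KO or WT library gave 25 to 148 calls, with 25 without the library labelled KO transduced, 148 without KO untreated, 142 without WT untreated and 100 without WT transduced; a lone library is then assumed to vary like the other lines. Of the 323 genes 322 were called again with only the 4 libraries, 309 by DESeq2 and 146 without the E690K pair. The 118 genes 2-fold apart in both pairs became 24 at 10 CPM or more and 394 at 1.5-fold, by the construction of these limits. Of 112 called genes followed singly none changed direction in any alternative that gave it a value. All called genes had the same direction in both pairs to begin with, so this is no test of them. Among genes that did not pass in the comparison reported, leaving out 1 library moved ABCA3 between -4.26 and 0.43 and ZEB1 between -0.33 and 0.00, turning without the library labelled KO transduced, and moved COL4A1 between -0.61 and 0.05 and MDM2 between -0.23 and 0.00, turning without WT transduced. ABCA3 passed the threshold without the library labelled KO untreated and, at -1.84, with only the 4 libraries, and COL4A1 passed it with only the 4 libraries, at -0.29.

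Line is the term tested, and the 2 libraries of 1 line do not replicate a difference between lines. No paired analysis by replicate number was possible because each group has 1 library and the shared number 1 pairs nothing beyond the vector term. Genes under about 1 CPM rest on few read pairs, and their folds are bounds or wide intervals.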

Other observations

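Most genes of the cell cycle had positive and most of the p53 response negative estimates, and 1 of them passed the test. Over all 17978 genes tested 8574 had positive and 9404 negative estimates. The share called was 1.80% there and 2.94% among the S phase and mitosis genes. Genes of a list can move together, so such counts are no test. Of 34 tested genes of S phase and mitosis 33 had positive estimates, with a median of 0.15, and RRM2, a subunit of ribonucleotide reductase, was called (0.42, SE 0.09, edgeR adjusted p 0.0364). MKI67 was at 609 and 745 CPM in WT and 752 and 844 CPM in KO (edgeR adjusted p 0.217). Of 24 p53 response genes 22 had negative estimates, with a median of -0.18, and 0 were called by edgeR against 3 by DESeq2 (9 at an unadjusted p under 0.05). CCNG1 was at 75.3 and 69.5 CPM in WT and 51.9 and 47.1 CPM in KO (edgeR adjusted p 0.056), GDF15 at 123 and 82.1 against 87.7 and 51.3 CPM, CDKN1A at 160 and 147 against 137 and 125 CPM, and MDM2 at 74.4 and 82.3 against 69.5 and 74.2 CPM.

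Of 33 tested HOX genes 26 had negative estimates, with a median of -0.22, and 0 were called by edgeR against 3 by DESeq2 (6 at an unadjusted p under 0.05). HOXB9 was at 15.4 and 16.7 CPM in WT and 11 and 9.68 CPM in KO (edgeR adjusted p 0.0631). Of 45 clustered protocadherin genes 0 were called by edgeR against 1 by DESeq2 (6 at an unadjusted p under 0.05), and the median was -0.04. Of 20 HLA and antigen presentation genes 0 were called by either tool (5 at an unadjusted p under 0.05). OAS3, an antiviral enzyme, was the 1 called gene of 37 interferon response genes (0.49, SE 0.08), and KLF4 the 1 of 22 foregut and liver transcription factors (0.48, SE 0.11). Among 21 S100 and annexin genes ANXA8 was higher (1.00, SE 0.16), although near-identical copies of it could share reads, and ANXA6 was lower (-0.58, SE 0.12). The shares called were 2.70% of the interferon, 4.55% of the foregut and 9.52% of the S100 and annexin genes, against 1.80% of all genes. Over windows of 50 neighbouring expressed genes the median log2 fold change ran from -0.16, on chromosome 19, to 0.11, on chromosome 12. Of neighbouring expressed genes within 500 kb, 9 pairs were called in the same direction, among them SCD with OLMALINC on chromosome 10, NBEA with DCLK1 on chromosome 13 and ARHGAP26 with NR3C1 on chromosome 5. Strand use in the counting is not stated, so reads of overlapping genes cannot be told apart.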
